A study of Mus musculus with 8 samples.

Results

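The 8 genes described here make or bring in cholesterol: *Hmgcs1*, *Sqle*, *Idi1*, *Fdft1* and *Lss* encode enzymes of sterol synthesis, *Insig1* and *Srebf2* encode regulators of that synthesis, and *Npc1l1* encodes the transporter that takes up cholesterol from the gut lumen. They were chosen by name, and all 8 are listed both in crypts, among 11554 genes, and in villi, among 12701 genes. Bulk RNA-seq was carried out on freshly isolated crypts and villi of the small intestine from C57BL/6 mice, to ask how loss of cyclooxygenase (COX) in mesenchymal stromal cells alters the epithelium. In Gli1-PtgscKO mice, abbreviated cKO, a tamoxifen-inducible Cre driven by Gli1 removes floxed *Ptgs1* (COX1) and *Ptgs2* (COX2) from mesenchymal cells that express Gli1, so the deletion is not in the epithelium itself. The control mice, Ctrl, are labelled wild type. The sample protocol gives their genotype as Gli1-CreERT2; Rosa26-tdTomato, whereas a legend of the study describes mice with both floxed genes and no Cre, so whether Ctrl carried Cre was not settled here. The study's text places its in vivo measurements 1 month after tamoxifen and gives no separate time for the RNA, and the age and number of animals behind each library are not given in the sources used here.

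Crypts were represented by 2 Ctrl and 2 cKO libraries. Villi were represented by 2 cKO libraries and by 2 Ctrl columns whose values were identical, which were counted as 1 library. The files hold counts that the authors divided by DESeq2 size factors, called normalised counts here. Whole reads could be recovered from their spacing, and each crypt library held 16853017 to 21121714 reads on listed genes and each villus library 13477600 to 15751024. Fold changes are cKO against Ctrl on the scale of log2(normalised count + 1), fitted with limma over all listed genes. A gene was called at the study's rule, an unadjusted p under 0.01 with an absolute log2 fold change over 1, or at a Benjamini-Hochberg adjusted p under 0.05, and rose or fell is written only of genes past one of these thresholds. With 2 libraries in each group, 0.333 is the smallest two-sided p of an exact permutation test. The replicates are called biological in the study's methods, but their animals are not named, so that the p-values measure the spread between these libraries. In villi the lone Ctrl library was assumed to vary like the cKO libraries. A trait of that 1 library cannot be told apart from genotype, in rises and falls in villi as well.

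The tissue labels were checked against marker genes, in RPM, the reads of a gene scaled to a common library total over the genes listed in both tables. The summed level of 7 crypt stem and Paneth cell genes lay between 22300 and 36820 RPM in crypts and between 510.6 and 1067 in villi, and that of 7 enterocyte genes between 2989 and 4342 in crypts and between 22760 and 26650 in villi. The deleted gene *Ptgs1* had 365 and 164 normalised counts in Ctrl crypts and 178 and 199 in cKO crypts, which overlap, whereas *Ptgs2* and Gli1 were not listed. Mesenchymal RNA was present in crypts, with 3458 to 5819 normalised counts of *Dcn* per library, but bulk values cannot tell fewer cells of a type from less RNA per cell. The library of cKO crypt replicate 1 stood apart from the other 3 by transcript length: across 11552 genes, the Spearman correlation between the length of the longest transcript and the difference of that library from the mean of the others was -0.67.

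Cells build cholesterol from acetyl-CoA by way of mevalonate, isoprenoid diphosphates and squalene, and the genes of this route share a transcriptional switch. Srebp2, the product of *Srebf2*, is held in the endoplasmic reticulum by Scap and the Insig proteins while membranes are rich in sterols. When sterols run low, Scap carries Srebp2 to the Golgi, where it is cleaved, and the released fragment binds sterol regulatory elements in the promoters of its target genes. In the small intestine, crypt cells synthesize sterols while they divide, and absorptive enterocytes of the villus also take up dietary and biliary cholesterol through *Npc1l1*.

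On GRCm38 (GENCODE M21) *Hmgcs1* lies at chr13:119690379-119708260 (plus strand), *Idi1* at chr13:8885501-8892451 (plus), *Fdft1* at chr14:63145150-63179578 (minus), *Sqle* at chr15:59315077-59331192 (plus) and *Lss* at chr10:76531588-76557138 (plus). Of the others, *Insig1* lies at chr5:28071363-28078662 (plus strand), *Srebf2* at chr15:82147181-82205379 (plus) and *Npc1l1* at chr11:6211013-6230143 (minus). The promoters of *Hmgcs1*, *Idi1* and *Insig1*, the members that rose in cKO villi, are shown with that of *Srebf2*, their common regulator. Each sequence holds the 250 bases before the annotated start from RefSeq (GRCm38.p6), written 5' to 3'. Capitals mark TCACNCCAC or TCACCCCA, cores of the sterol regulatory element, CACGTG, and CCAAT, whose opposite strand reads ATTGG.
Hmgcs1, chr13:119690101-119690350, plus strand: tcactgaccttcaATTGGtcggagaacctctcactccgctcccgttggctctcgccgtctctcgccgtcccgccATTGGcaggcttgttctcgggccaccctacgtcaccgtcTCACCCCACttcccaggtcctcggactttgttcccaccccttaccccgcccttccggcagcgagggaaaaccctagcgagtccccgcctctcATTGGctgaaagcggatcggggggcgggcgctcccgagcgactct
Idi1, chr13:8885356-8885605, plus strand: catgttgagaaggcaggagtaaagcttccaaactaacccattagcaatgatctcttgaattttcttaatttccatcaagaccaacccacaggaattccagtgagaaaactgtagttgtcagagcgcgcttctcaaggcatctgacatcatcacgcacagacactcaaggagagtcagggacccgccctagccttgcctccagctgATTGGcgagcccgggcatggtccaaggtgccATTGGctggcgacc
Insig1, chr5:28071162-28071411, plus strand: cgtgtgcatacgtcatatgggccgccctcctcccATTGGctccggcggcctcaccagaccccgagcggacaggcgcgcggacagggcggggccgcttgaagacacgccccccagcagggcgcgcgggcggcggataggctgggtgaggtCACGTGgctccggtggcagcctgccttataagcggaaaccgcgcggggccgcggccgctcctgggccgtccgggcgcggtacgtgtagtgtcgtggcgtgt
Srebf2, chr15:82147019-82147268, plus strand: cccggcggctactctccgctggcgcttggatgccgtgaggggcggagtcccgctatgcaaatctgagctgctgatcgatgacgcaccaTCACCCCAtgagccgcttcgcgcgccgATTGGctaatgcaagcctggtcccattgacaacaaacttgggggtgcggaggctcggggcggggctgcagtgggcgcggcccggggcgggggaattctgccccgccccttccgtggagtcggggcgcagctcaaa
Promoters of 6 of the 8 members were matched, and those of *Sqle* and *Fdft1* were not. Letters were searched on both strands. TCACNCCAC stood in the *Hmgcs1* promoter alone among the 6, 137 bases before the start, and in 1.05% of 32851 promoters. TCACCCCA, which lies within that match, also stood in the *Srebf2* promoter, 162 bases before the start, and in 1.34% of promoters. CACGTG was found in the *Insig1* promoter, 101 bases before the start, and in 6.02% of promoters. CCAAT was found in all 6 matched promoters, against 33.8% of all promoters, and GGGCGG, which is not capitalised, in 5 of 6 against 32.7%. The *Idi1* promoter held CCAAT on the opposite strand 45 and 14 bases before the start and neither sterol element core. These are matches of letters in a short window and were not tested as binding sites.

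In crypts none of the 8 genes passed either threshold, and for 7 of 8 the cKO libraries overlapped the Ctrl libraries. *Hmgcs1*, which condenses acetyl-CoA and acetoacetyl-CoA into HMG-CoA, had 5264 and 4305 normalised counts in Ctrl crypts and 5075 and 3645 in cKO crypts. *Idi1*, which interconverts isopentenyl and dimethylallyl diphosphate, had 1131 and 1357.5 in Ctrl and 1093 and 1427 in cKO. *Sqle*, the squalene epoxidase that forms the oxygen bridge before ring closure, had 1955 and 2231 in Ctrl and 2324 and 2073 in cKO. In each of these genes a cKO library lay on either side of the Ctrl mean. *Fdft1*, the squalene synthase that commits farnesyl diphosphate to sterols, had 1950.0 and 1681.5 in Ctrl and 2387 and 1572 in cKO. *Lss*, which closes squalene epoxide into lanosterol, had 668 and 576 in Ctrl and 664 and 732 in cKO. The fitted log2 fold changes of the 5 enzymes lay between -0.15 (*Hmgcs1*) and 0.17 (*Lss*), each smaller than its standard error, which was 0.28 for *Hmgcs1* and 0.26 for *Lss*.

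*Insig1*, whose product holds Scap in the endoplasmic reticulum and is itself induced by Srebp2, was the only member with both cKO crypt libraries above both Ctrl libraries, with 2182 and 1876 in Ctrl and 2215 and 2278.5 in cKO. Its log2 fold change was 0.15 ± 0.24 (SE), and 9.73% of all genes had both cKO crypt libraries above both Ctrl libraries. *Srebf2* had 4171 and 4731 in Ctrl and 4049 and 4456 in cKO, a log2 fold change of -0.06 ± 0.24. *Npc1l1* had the largest difference of the 8, with 3825 and 5316 in Ctrl and 2729.9 and 4283 in cKO. cKO crypt replicate 1 was the lowest of the 4 libraries, replicate 2 lay between the Ctrl libraries, and the groups overlapped. The log2 fold change of *Npc1l1* was -0.40 ± 0.32, with a 95% interval from -1.16 to 0.36. Without cKO crypt replicate 2, so that the outlying library alone stands for the genotype, it was -0.72, and without replicate 1 it was -0.07.

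Calls were rare in crypts altogether. The study's rule called 20 of 11554 genes higher, which is 0.173%, and 1 gene lower, which is 0.00866%, and limma left 0 genes (0.0%) at an adjusted p under 0.05, with 73 at an unadjusted p under 0.05. edgeR on the recovered reads left 0 and DESeq2 left 11 genes at an adjusted p under 0.05, and neither called a member. The members' median log2 fold change in crypts was 0.04, against -0.01 over all genes. The 95% intervals allow changes of this size in either direction: for *Idi1* the interval ran from -0.62 to 0.64 and for *Hmgcs1* from -0.81 to 0.52 on the log2 scale. In the same libraries 5 of 5 listed gastric genes passed the study's rule as higher in cKO, with log2 fold changes between 1.16 and 1.70, and their part in the members' values was not tested. The study had already named these 5 as upregulated from its crypt RNA-seq, so the count is not separate evidence.

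**Figure D1:**
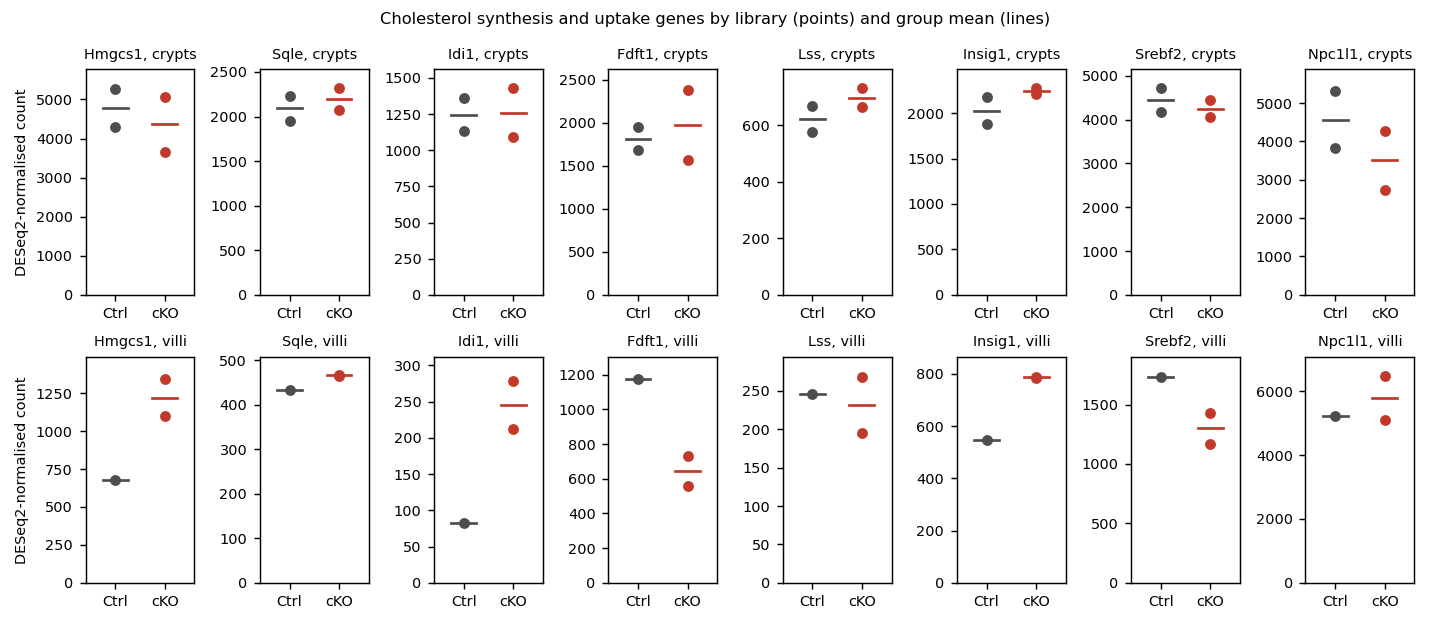
DESeq2-normalised counts of the 8 genes by library, in crypts (upper row, 2 Ctrl and 2 cKO libraries) and villi (lower row, 1 Ctrl and 2 cKO libraries); points are libraries, lines are group means, and the tables of the 2 tissues were normalised separately. In crypts the groups overlap for every gene but *Insig1*, whereas in villi *Idi1*, *Hmgcs1* and *Insig1* are higher and *Fdft1* is lower in both cKO libraries.

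In villi 3 of the 8 genes rose, 1 fell and 4 did not pass, at an adjusted p under 0.05. Over all genes, 17.4% were called higher and 17.4% lower at this threshold, and with 8 members neither count was read as a departure from these shares. With DESeq2 on the recovered reads 2 of the 8 rose. *Idi1* had 82.2 normalised counts in the Ctrl library and 212 and 278 in the cKO libraries (245 ± 46.9, SD, n = 2). Both cKO libraries lay far above the Ctrl library. The log2 fold change was 1.55 ± 0.24 (SE) with an adjusted p of 0.00871. *Idi1* was the only member past the study's rule, which called 9.82% of all genes higher and 6.69% lower.

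*Hmgcs1* rose from 680.0 to 1097 and 1344 normalised counts, a log2 fold change of 0.84 ± 0.18 and an adjusted p of 0.0188. *Insig1* rose from 546 to 785 and 787, a log2 fold change of 0.53 ± 0.15 and an adjusted p of 0.0431. The pair of cKO libraries gave nearly the same *Insig1* value, and with DESeq2 on the recovered reads *Insig1* no longer passed, with an adjusted p of 0.169 (DESeq2). *Fdft1* moved the other way, from 1173 in Ctrl to 557 and 730 in cKO, a log2 fold change of -0.88 ± 0.21 and an adjusted p of 0.0231. With scaling by library size alone the fall of *Fdft1* was -0.45, with an adjusted p of 0.0940 (limma).

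*Sqle*, *Lss*, *Srebf2* and *Npc1l1* did not pass in villi with the deposited size factors. *Sqle* had 433 normalised counts in Ctrl and 465 and 467 in cKO, a log2 fold change of 0.11 with a 95% interval from -0.29 to 0.50. *Lss* had 246 in Ctrl and 268 and 195 in cKO, on either side of Ctrl. *Srebf2* had 1729.5 in Ctrl and 1429 and 1172 in cKO, both lower, with a log2 fold change of -0.42 ± 0.18 and an adjusted p of 0.119. *Npc1l1*, the most abundant member in villi, had 5217 in Ctrl and 6478 and 5115 in cKO, with a log2 fold change of 0.14 and a 95% interval from -0.34 to 0.63. With scaling by library size alone *Npc1l1* passed as higher, at 0.57 with an adjusted p of 0.0291 (limma), a scaling that moved the median of all villus genes to 0.42.

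The members' median log2 fold change in villi was 0.12, against -0.01 over all genes, with members differing in both directions. Of the 8, 4 had both cKO libraries above the Ctrl library and 2 had both below. Over all genes those shares were 43.7% and 44.2%.

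**Figure D2:**
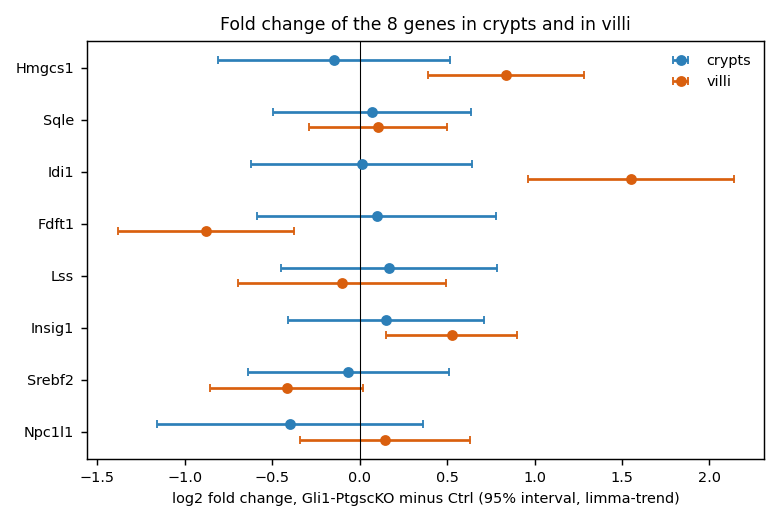
Log2 fold change of each of the 8 genes, cKO minus Ctrl, in crypts (blue) and villi (orange); points are limma estimates and bars their 95% intervals. All 8 intervals span 0 in crypts, and in villi those of *Idi1*, *Hmgcs1* and *Insig1* lie above 0 and that of *Fdft1* below.

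The 8 genes were next set among the 21 enzymes of sterol synthesis, all of which were listed in both tissues. In crypts none of the 21 passed either threshold with all 4 libraries, and their median log2 fold change was 0.07. Without cKO crypt replicate 2, *Mvk*, *Pmvk* and *Fdps* passed the study's rule as higher, and 5 of the 21 had an adjusted p under 0.05, as did 1987 of all genes. In villi 4 rose and 7 fell at an adjusted p under 0.05, the other 10 did not pass, and the median was -0.20. Over all villus genes 17.4% were called higher and 17.4% lower at this threshold. The genes named here beyond *Idi1*, *Fdps* and *Pmvk* were chosen after their values were seen.

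The 4 that rose were *Hmgcs1*, *Idi1*, *Lbr* and *Sc5d*. *Lbr*, the lamin B receptor with sterol C14 reductase activity, had 212 normalised counts in Ctrl villi and 382 and 361 in cKO villi, a log2 fold change of 0.81 and an adjusted p of 0.0182. *Sc5d*, which desaturates the sterol ring late in the pathway, had 550 and then 1005 and 1033.5, a log2 fold change of 0.89 and an adjusted p of 0.0104. The 7 that fell were *Mvk*, *Pmvk*, *Fdps*, *Fdft1*, *Tm7sf2*, *Ebp* and *Dhcr7*. *Fdps*, which joins the isoprenoid units into farnesyl diphosphate, fell from 1941 to 683 and 976, a log2 fold change of -1.25 and an adjusted p of 0.0129. *Pmvk*, the kinase that forms mevalonate diphosphate, fell from 359 to 143 and 203, a log2 fold change of -1.07 and an adjusted p of 0.0245. These 2 passed the study's rule as well.

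Direction differed among the steps of the route. Between mevalonate and farnesyl diphosphate, *Mvk* fell by 0.90 and *Pmvk* by 1.07 on the log2 scale, *Idi1* rose by 1.55, and *Fdps* fell by 1.25, so that *Idi1* stood against the steps on either side of it. The 2 reductases that act on the same sterol double bond parted as well, with *Lbr* at 0.81 and *Tm7sf2* at -0.88. *Mvd*, which forms isopentenyl diphosphate, was below Ctrl in both cKO villus libraries, with 496 in Ctrl and 242 and 351 in cKO, and had an adjusted p of 0.0613. In crypts it was above both Ctrl libraries in both cKO libraries, at 673 and 420 against 394.5 and 369, and did not pass.

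**Figure D3:**
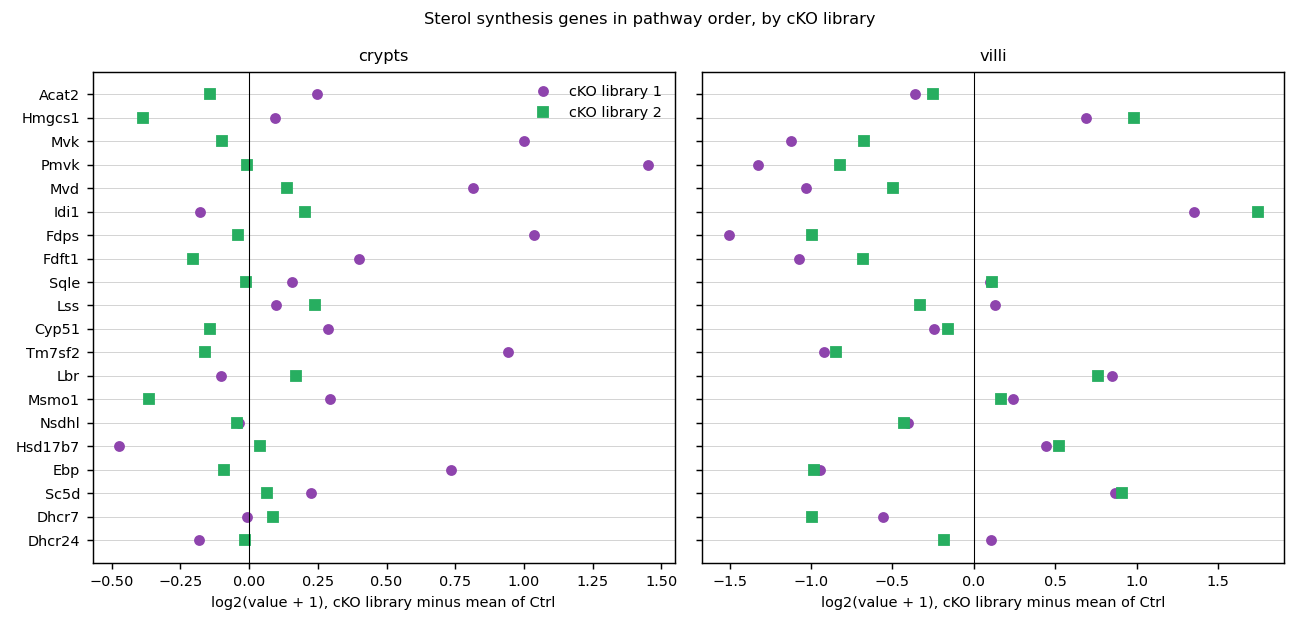
Difference of each cKO library from the mean of Ctrl on the scale of log2(normalised count + 1) for 20 of the 21 sterol synthesis genes, from the start of the pathway (top) to its end, in crypts (left) and villi (right); circles are cKO replicate 1 and squares replicate 2. In villi the replicates, both set against the same Ctrl library, lie on the same side of 0 for 18 of 20 genes. Over all villus genes 43.7% had both cKO libraries above the Ctrl library and 44.2% both below. In crypts *Pmvk*, *Fdps*, *Mvk*, *Tm7sf2*, *Mvd* and *Ebp* are raised in replicate 1 and lie near 0 in replicate 2.

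Transcript length moved with these differences. Across 12698 genes in villi, the Spearman correlation between the length of the longest transcript and the difference from Ctrl was 0.54 for cKO replicate 1 and 0.51 for replicate 2. Longer transcripts were thus higher in both cKO libraries than in the lone Ctrl library, and that library and genotype cannot be told apart. The genes are points of the same libraries and share the Ctrl library, and the correlation is a description. Over the 21 sterol synthesis genes it was 0.62 and 0.55. The 7 genes that fell had longest transcripts of 1194 to 3698 bases, and the 4 that rose 3027 to 4787 bases. In cKO crypt replicate 1, where shorter transcripts were higher, the same 7 genes had a median log2 difference of 0.94 from Ctrl, against -0.09 in replicate 2, while the 4 had -0.00 and 0.12.

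When a smooth curve of length was taken out of every library, the calls of *Mvk*, *Pmvk*, *Ebp*, *Sc5d* and *Dhcr7* in villi were lost, and 6 of the 21 genes passed rather than 11. The log2 fold changes of these 5 kept their direction, at -0.66 (*Mvk*), -0.44 (*Pmvk*), -0.53 (*Ebp*), 0.57 (*Sc5d*) and -0.65 (*Dhcr7*). Over all villus genes 2183 of 12698 passed with this correction, against 4424 of 12701 without it. *Idi1* at 1.61, *Hmgcs1* at 0.79, *Insig1* at 0.69 and *Fdft1* at -0.98 still passed, with adjusted p-values of 0.0248, 0.0439, 0.0371 and 0.0375 (limma). *Srebf2* then passed as lower, at -0.80 with an adjusted p of 0.0356. *Npc1l1* and *Sqle* changed sign, to -0.11 and -0.15, and did not pass. *Lss* moved to -0.77 with an adjusted p of 0.0740. *Idi1*, *Hmgcs1* and *Insig1* thus lay above, and *Fdft1* below, the median of genes of their length in both cKO villus libraries.

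**Figure D4:**
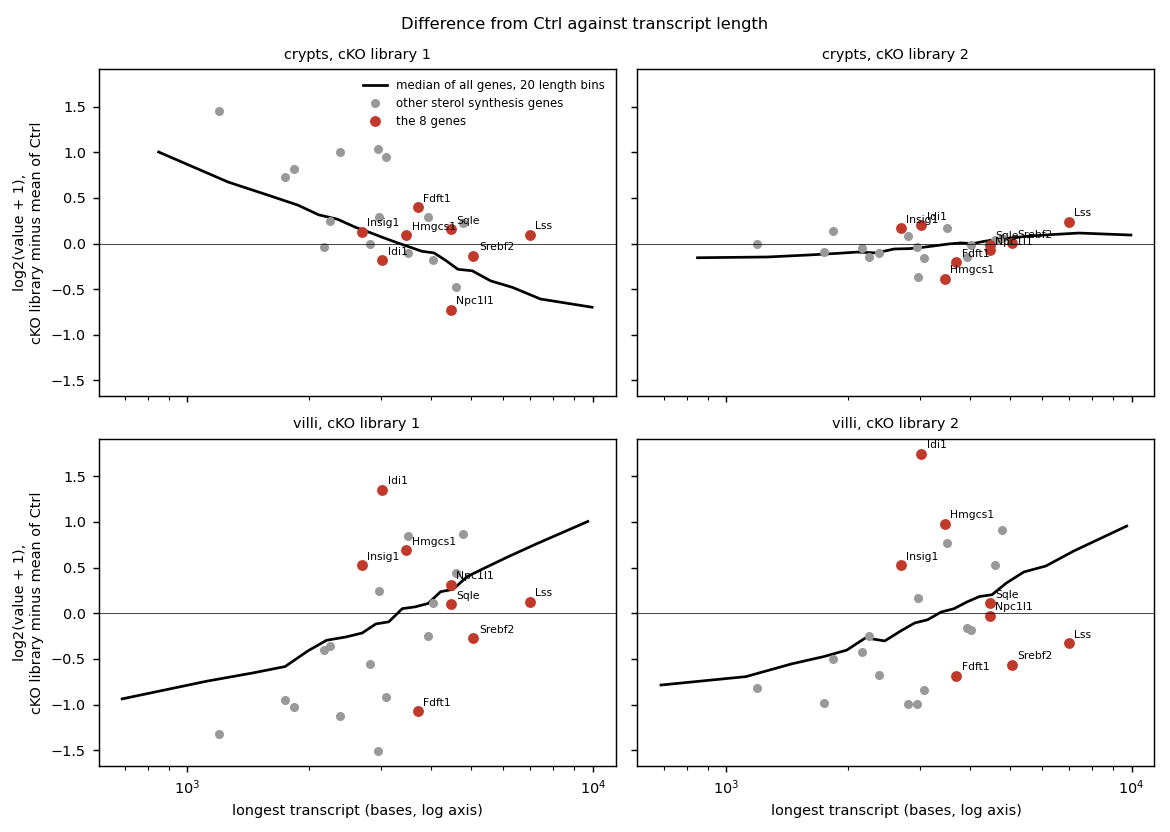
Difference of each cKO library from the mean of Ctrl, on the scale of log2(normalised count + 1), against the length of the longest transcript (log axis); the line is the median of all genes in 20 bins of length, grey points are other sterol synthesis genes and red points the 8 genes. The line falls with length in cKO crypt replicate 1 and rises in both cKO villus libraries, where *Idi1*, *Hmgcs1* and *Insig1* lie above it and *Fdft1*, *Srebf2* and *Lss* below it.

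Other markers also differed between the villus libraries, where 17.4% of all genes were called higher and 17.4% lower at an adjusted p under 0.05. The proliferation genes *Mki67* and *Top2a* rose in cKO villi, by 2.05 and 1.43 on the log2 scale, whereas *Pcna*, at 0.17, and *Ccnb1*, at -0.40 with both cKO libraries below Ctrl, did not pass. The summed level of the 4 proliferation genes was 95.1 RPM in Ctrl and 199.7 and 195.3 in cKO, against 883 to 1271 in crypts. Of the 7 crypt stem and Paneth cell genes none passed in villi, although their sum was 510.6 in Ctrl and 1067 and 677.5 in cKO. All 4 listed ileum genes fell, with log2 fold changes from -1.76 (*Fabp6*) to -0.68 (*Slc10a2*), and their sum was 1336 in Ctrl and 496.5 and 684.0 in cKO. Of 5 listed duodenum genes none rose and 1, *Gata4*, fell, with a median log2 fold change of -0.29. Of 5 gastric genes 3 rose, among them *Gkn2*, by 1.84, and *Muc5ac*, which had 0 reads in Ctrl villi and 43 and 15 in cKO villi. Of 7 immune genes 4 fell and 1, *Ptprc*, rose, and the sum was 1190.0 in Ctrl and 432.8 and 401.2 in cKO. These marker values are without the length correction. Genes in the length bin with a median of 9728 bases had median log2 differences of 1.01 and 0.96 in the cKO villus libraries. Those in the bin with a median of 690 bases had -0.94 and -0.79. The part of transcript length in the marker differences was not tested. The part of dividing cells, intestinal or gastric region and immune cells in the sterol gene differences was not tested.

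Of the 11 listed genes that sense sterols and process Srebp proteins, *Insig1* alone passed in villi, 3 had an unadjusted p under 0.05, and 7 had both cKO libraries above Ctrl. Over all 12701 villus genes 17.4% passed as higher and 17.4% as lower at an adjusted p under 0.05. An unadjusted p under 0.05 was found for 6010 of them, and 43.7% had both cKO libraries above Ctrl. In crypts none of the 11 passed. *Mbtps2*, the protease that makes the final cut in Srebp proteins, had 59.1 normalised counts in Ctrl villi and 97.9 and 107 in cKO villi, a log2 fold change of 0.78, larger than that of *Insig1*, with an adjusted p of 0.0530. *Rnf139*, a ubiquitin ligase of the endoplasmic reticulum, had 137 and then 205 and 196, with an adjusted p of 0.0738. In crypts the largest separated differences, none of which passed, were those of *Srebf1*, which encodes the regulator of fatty acid synthesis, and *Insig2*. *Srebf1* had 1982 and 2350 in Ctrl and 2916 and 2508 in cKO, a log2 fold change of 0.33 ± 0.24. *Insig2* had 875 and 884 in Ctrl and 714 and 706 in cKO, a log2 fold change of -0.31 ± 0.24.

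Around *Npc1l1*, 17 genes of cholesterol uptake and intracellular transport were listed in both tissues. In crypts none passed. In villi 2 rose and 3 fell at an adjusted p under 0.05, and 12 did not pass. Over all villus genes 17.4% were higher and 17.4% lower at this threshold. *Npc1*, which moves cholesterol out of lysosomes, rose from 64.9 to 169 and 150 normalised counts, a log2 fold change of 1.28 and an adjusted p of 0.0109. Its partner *Npc2* fell by 0.89 on the log2 scale. *Anxa2*, an abundant membrane-binding protein, fell from 24732.5 to 10133 and 12597, a log2 fold change of -1.13 and an adjusted p of 0.0126. *Lrp8*, a receptor of the low-density lipoprotein receptor family, was near the lower limit of the villus table, with 3.48 normalised counts in Ctrl and 13.8 and 19.3 in cKO, and had an adjusted p of 0.0677. In crypts *Lrp8* had 136 and 121 in Ctrl and 59.8 and 109.5 in cKO and *Stard4* 5098 and 5377 against 4593 and 4966.

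Among genes of cholesterol export, storage and the oxysterol receptors, 11 were listed in crypts and 12 in villi. In crypts none passed. *Apoe*, the apolipoprotein of lipid transport, had 312 and 158 normalised counts in Ctrl and 443 and 634 in cKO, a log2 fold change of 1.25 ± 0.41 that passed neither threshold. In villi it lay the other way, with 2284 in Ctrl and 463 and 1185 in cKO and an adjusted p of 0.0520. *Apob*, the structural protein of chylomicrons, rose in villi from 7020 to 22005 and 15373, a log2 fold change of 1.39 and an adjusted p of 0.0121. *Abca1*, a cholesterol exporter, rose from 176 to 537 and 358, a log2 fold change of 1.31 and an adjusted p of 0.0159. The receptor genes *Nr1h3* and *Nr1h2* fell, *Nr1h3* from 2078 to 910 and 1014, a log2 fold change of -1.11. *Apob* and *Abca1* have longest transcripts of 13934 and 10262 bases, and with the length correction they stood at 0.20 and 0.34 and no longer passed.

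Of the 15 listed genes of fatty acid synthesis none passed in crypts, where *Elovl5* had 1611 and 1705 normalised counts in Ctrl and 932 and 1495 in cKO, *Acss2* 1537 and 1476 against 1306 and 1172, and *Fads2* 6428 and 6611 against 5667.5 and 6139. In villi 1 rose and 3 fell at an adjusted p under 0.05, where 17.4% of all villus genes were higher and 17.4% lower. *Scd2*, a desaturase, rose from 239 to 395 and 492, a log2 fold change of 0.88. *Tecr*, which completes the elongation cycle, fell from 2419 to 1388 and 1043, a log2 fold change of -1.01, and *Scd1*, at 24.3 against 49.7 and 37.7, did not pass. Of 12 genes in branches that leave the mevalonate route for dolichol, ubiquinone and protein prenylation, none passed in crypts. In villi *Dhdds* and *Rce1* fell, *Dhdds* from 539 to 290 and 308 and *Rce1* from 352 to 230.1 and 233, whereas *Fntb*, at 280.3 against 157.5 and 201, did not pass. Genes in the length bin with a median of 1447 bases had median log2 differences of -0.65 and -0.56 in the cKO villus libraries. The values of *Rce1* and *Tecr* with the length correction are not given here, and the part of transcript length in their falls was not tested.

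Levels in the 2 tissues were set side by side as RPM over the 11227 genes listed in both tables, with no test, because the tables were normalised separately and Ctrl villi were 1 library. In Ctrl, 7 of the 8 genes were lower in the villus library than in both crypt libraries, and *Npc1l1* was higher. Of all genes, 73.6% were lower in the villus library and 21.4% higher, and the median log2 ratio of villus to crypt was -1.48 for the members and -1.18 for all genes. With TMM scaling, a trimmed mean over the shared genes, these medians were -0.413 and -0.115, and the log2 ratio of *Fdft1* turned from -0.48 to 0.59, while those of *Lss* and *Srebf2* came to -0.12 and -0.15. The members' median differed from that of all genes by -0.30, a difference that a change of scaling leaves in place, and by -0.03 with the length correction.

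*Idi1* differed most, with 61.7 and 71.5 RPM in Ctrl crypts (66.6 ± 6.91, SD, n = 2) and 4.88 in Ctrl villi, a log2 ratio of -3.77. *Hmgcs1* had 287 and 227 in Ctrl crypts and 40.4 in Ctrl villi, a log2 ratio of -2.67. *Sqle* had 107 and 117.5 in crypts and 25.7 in villi, and *Insig1* 119 and 98.8 in crypts and 32.4 in villi. In each of these 4 genes the villus value was less than the lowest crypt value by a wide margin. *Srebf2*, at 228 and 249 in crypts and 103 in villi, and *Lss*, at 36.5 and 30.4 and then 14.6, had log2 ratios of -1.22 and -1.20, close to the median of all genes at this scaling. With the length correction the ratios were -0.61 (*Srebf2*) and -0.23 (*Lss*), above the median of all genes, which was -1.13. *Fdft1*, at 106 and 88.6 in crypts and 69.7 in villi, had a log2 ratio of -0.48. *Npc1l1*, at 209 and 280.0 in crypts and 310 in villi, had a log2 ratio of 0.34.

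At the RPM scaling the cKO libraries gave ratios of the same sign for each of the 8 genes, with no test. The log2 ratio of cKO villi to cKO crypts was -1.73 for *Idi1* and -1.18 for *Hmgcs1*, 1.37 for *Npc1l1*, and -0.64 over all genes. In cKO villi *Idi1* had 17.7 and 21.4 RPM, above the Ctrl villus library and below all 4 crypt libraries. The level of *Fdft1* in RPM was 46.4 and 56.3 in cKO villi, below the Ctrl villus library and all crypt libraries. Of the other sterol synthesis genes, *Mvk*, *Pmvk*, *Mvd*, *Fdps*, *Tm7sf2* and *Ebp* were higher in the Ctrl villus library than in both Ctrl crypt libraries, with *Pmvk* at 21.3 against 9.31 and 8.20 and *Fdps* at 115 against 77.5 and 71.8. These levels are in RPM without the length correction, and the part of transcript length in them was not tested. Both sets of ratios rest on the villus libraries compared above, so they do not stand apart from that comparison.

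**Figure D5:**
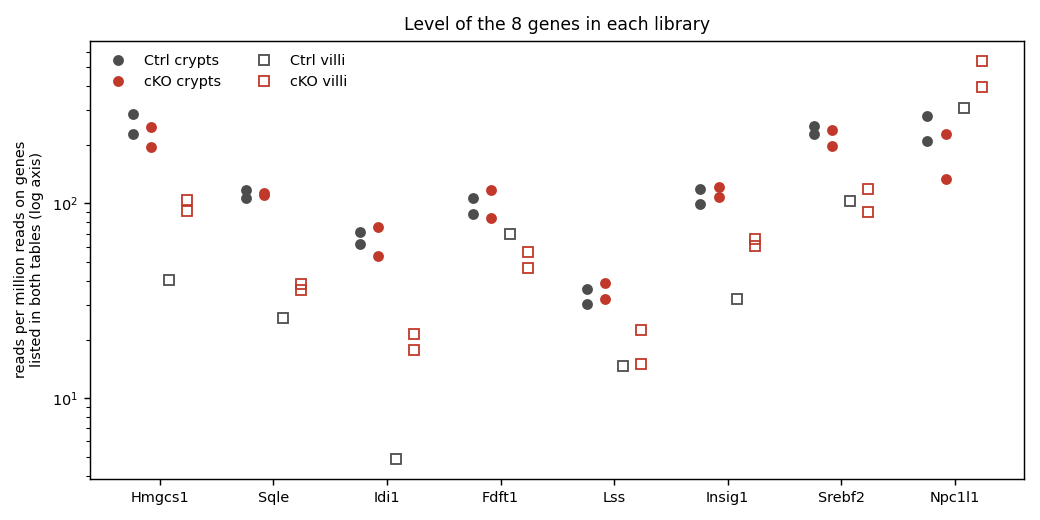
Level of the 8 genes in each library, as RPM over genes listed in both tables (log axis); filled circles are crypt and open squares villus libraries, grey for Ctrl and red for cKO. At this scaling only *Npc1l1* is higher in the Ctrl villus library than in both Ctrl crypt libraries (with TMM scaling the ratio of *Fdft1* is also above 0), and *Idi1* has the largest gap between the Ctrl villus library and the crypts.

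Per kilobase of longest transcript, *Hmgcs1* was the highest of the 8 in Ctrl crypts, at 82.9 and 65.5 RPM per kilobase, followed by *Npc1l1* at 46.7 and 62.7, *Srebf2* at 44.8 and 49.1 and *Insig1* at 44.2 and 36.6. *Npc1l1* and *Srebf2* overlapped between the 2 libraries. *Fdft1*, *Sqle* and *Idi1* formed a group between 20.4 and 28.8 whose order differed between the libraries, and *Lss* was the lowest, at 5.22 and 4.34. In the Ctrl villus library the order was led by *Npc1l1* at 69.4, followed by *Srebf2* at 20.2 and *Fdft1* at 18.8, and closed by *Lss* at 2.09 and *Idi1* at 1.61. *Hmgcs1*, the highest in crypts, stood at 11.7 there. The longest annotated transcript of *Lss* has 6992 bases, and a shorter transcript in use would raise its value per kilobase.

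The 8 genes did not move as a unit. Over the 7 libraries, each member was correlated with the members' mean level in log2(RPM + 0.1), centred within each tissue. The correlation was highest for *Idi1* (Pearson r of 0.95), *Insig1* (0.95) and *Sqle* (0.93), was 0.27 for *Srebf2* and was negative for *Fdft1* (-0.77). RPM is scaled by library total, and scaling by library size alone moved the median of all villus genes to 0.42. The genes outside all lists most like the mean of the members were *Gcfc2*, *Zscan26*, *Dach1*, *Suz12* and *Blzf1*, with Pearson r between 0.9986 and 0.9992. The members enter their own mean, all points share the 7 libraries, and the lone Ctrl villus library weighs heavily in every such correlation.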

How the data were processed

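RNA of small intestinal crypts and villi was sequenced by the authors. The reads were aligned by the authors to mm10 with STAR and compared with DESeq2. The labels and the methods name different RNA and library kits. The counting program, strand setting and annotation are not given in the sources used here, so overlapping and antisense genes are uncertain. The deposited values are a signal, the gene count divided by a size factor. Columns with the authors' fold changes, p-values and adjusted p-values were not used. Genes without an adjusted p in the authors' fit are not listed, and the smallest mean over libraries was 48.4 in crypts and 8.73 in villi.

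Columns of values not mapped to a sample were 0. Genes were tested with limma 3.58.1 (trend, R 4.3.3), without a replicate block, on values of genes whose mean was at least 1, transformed as log2(value + 1). The design named this test for normalised values. Whole reads came out for 100% of values within 0.01 of a read, and edgeR 4.0.16 and DESeq2 1.42.0 were run on them as alternatives. Other alternatives were library size scaling, a pseudocount of 0.1, a mean of at least 100, no filter, a lowess length correction with a span of 0.3, and leaving out libraries. Lengths came from GENCODE M21, in which 11552 crypt and 12698 villus genes were matched. The main limma fit, edgeR and DESeq2 were tested on simulated counts without a length trend, and the other alternatives were not. Named genes were the 8 members, and of each list those called in either tissue (at most 5) and the 3 with the largest change in each tissue whose cKO libraries lay on one side of Ctrl, with the 5 genes outside the lists of most similar pattern. The members and lists were chosen with earlier results of these data known. Figures were drawn with matplotlib 3.10.9. Some genes of the lists enter the counts and medians but are not reported by name here.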

Additional observations from a re-analysis of the deposited data

Results flagged for a closer look

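Of 83 genes of the sterol and fatty acid lists that are in both tissues and are reported here, 8 had cKO crypt libraries both above, or both below, every Ctrl crypt library while the cKO villus libraries lay the opposite way from Ctrl, and none of them is among the 8 members. Of the 83, 13 were separated in crypts, which is 15.7%, against 20.9% of the 11227 genes in both tables. The 8 that lay opposite in villi are 9.64% of the 83, against 12.9% of all genes, so their share is no larger than the background. The difference between tissues was not tested, because the tables were normalised separately. *Mvd*, *Nr1h2* and *Apoe* were higher in cKO crypts and lower in cKO villi, with log2 fold changes in crypts of 0.48 (*Mvd*), 0.31 (*Nr1h2*) and 1.25 (*Apoe*). In villi the same genes had -0.76 (*Mvd*), -0.92 (*Nr1h2*) and -1.62 (*Apoe*). *Insig2*, *Lrp8*, *Stard4*, *Abcg5* and *Soat1* were lower in cKO crypts and higher in cKO villi, with -0.31 (*Insig2*), -0.65 (*Lrp8*), -0.13 (*Stard4*), -0.24 (*Abcg5*) and -0.21 (*Soat1*) in crypts. In villi they had 0.18 (*Insig2*), 1.95 (*Lrp8*), 0.50 (*Stard4*), 0.47 (*Abcg5*) and 0.62 (*Soat1*). None of the 8 passed in crypts, and *Nr1h2* and *Stard4* passed in villi at an adjusted p under 0.05 (limma). Transcript length was related to the difference from Ctrl in opposite directions in cKO crypt replicate 1 (Spearman correlation of -0.67) and in the cKO villus libraries (0.54 and 0.51). With the length correction *Mvd* stood at 0.32 in crypts and -0.36 in villi and passed in neither. The corrected values of the others are not given here, and the part of length in these 8 genes was not tested.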

How the results depend on the processing

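In crypts the count of members called stayed at 0 under every alternative run. The replicate block, which pairs libraries by the number in their label, also called 0 members and gave a member median of 0.04. It raised the calls over all genes from 20 higher and 1 lower to 63 and 15, with 34 rather than 0 at an adjusted p under 0.05. The deviations of same-numbered crypt libraries, of which there are 2 pairs, correlated at 0.25 across 11554 genes. No label says that a number marks a shared animal or batch. With the block a gene's own spread did not enter its variance. Leaving out libraries gave member medians from -0.01 to 0.10 in crypts and from 0.04 to 0.22 in villi, 0 to 3 sterol synthesis genes called in crypts and 0 to 5 at an adjusted p under 0.05. The 3 and the 5 came without cKO crypt replicate 2, when 1987 genes passed over the whole table. Leaving out a Ctrl crypt library gave a member ratio of villi to crypts from -1.60 to -1.44. A lone library was assumed to vary like the others, and without a cKO villus library only values remain. The Ctrl villus library cannot be left out.

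Library size scaling shifted the all-gene median to 0.42 in villi and -0.08 in crypts. It gave a member median of -0.0313 in crypts and 0.56 in villi, 2 members called in villi, and turned *Idi1* to -0.0614 and *Sqle* to -0.00111 in crypts and *Lss* to 0.33 and *Srebf2* to 0.0139 in villi. The split of calls over all villus genes was then 2825 higher and 159 lower, against 1247 and 850. Length correction gave a member median of -0.13 in villi, 6 sterol synthesis genes at an adjusted p under 0.05 there, a member ratio of -1.15, and 703 higher and 383 lower genes over all villus genes, and turned *Idi1* to -0.00875 and *Srebf2* to 0.0579 in crypts and *Npc1l1* to -0.11 and *Sqle* to -0.15 in villi. TMM scaling gave a member ratio of -0.41. In crypts, where no member passed, signs also turned when libraries were left out, where *Fdft1* ran from -0.204 to 0.398, *Hmgcs1* from -0.385 to 0.0924, *Idi1* from -0.181 to 0.204, *Sqle* from -0.0234 to 0.167 and *Srebf2* from -0.156 to 0.0263. In villi *Lss* ran from -0.330 to 0.128 and *Npc1l1* from -0.0285 to 0.312. DESeq2 lost the villus calls of *Insig1*, *Mvk*, *Lbr* and *Dhcr7*, and called 60 higher and 5 lower genes in crypts. The causes of these shifts were not tested.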
